A study of Mus musculus with 16 samples.

Results

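The genes described here are 10 endothelial marker genes, which serve to read the blood vessel lining from RNA of a whole organ: the receptor genes Kdr, Flt1, Tek and Tie1, the adhesion genes Pecam1 and Cdh5, and Vwf, Emcn, Plvap and Egfl7. They were taken by symbol from a table of 38087 genes, and each of the 10 matched exactly 1 row. Total RNA was sequenced from testes of germ-free (GF) males (3 libraries) and conventionally raised (CV) males (4 libraries), and from ovaries of GF females (5 libraries) and CV females (4 libraries). GF mice are raised without microbes and CV mice carry a normal gut microbiota. All groups were C57BL/6j mice of 15 to 16 weeks with free access to food, sampled 2 to 4 hours after lights on. Tissue and sex were 1 factor, and no label gives a cage, a colony, a batch or an ovarian cycle stage. Whether each library is another animal is not given in the labels, and the p-values then cover only the variation among these libraries, part of which may be technical.

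Endothelial cells line every blood vessel. Vascular endothelial growth factor (VEGF), released by surrounding tissue, acts on them through the receptors made from Kdr and Flt1, and angiopoietins act through the receptor made from Tek, with Tie1 as its partner. In the ovary, vessels grow and regress with each cycle of follicle and corpus luteum, the hormone-producing body left after ovulation. In the testis, vessels run in the interstitium between the seminiferous tubules and do not enter the tubules, where germ cells make up most of the tissue.

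The tissue labels were checked with marker lists. Of 7 testis germ and somatic cell markers the summed level ran from 7175 to 7758 CPM (read counts scaled for library size and composition) in testes and from 29.2 to 58.0 CPM in ovaries. Of 7 oocyte and follicle markers it ran from 22.7 to 25.9 CPM in testes and from 176 to 440 CPM in ovaries. Total counts ran from 25880591 to 28266867 in testes and from 12912251 to 15907297 in ovaries. Pecam1 is also made by platelets and leukocytes and Vwf by platelets, so neither marks vessels alone. A summed level of 11 red cell and platelet markers ran from 41.0 to 54.4 CPM in testes and from 38.6 to 172 CPM in ovaries. This sum does not measure platelets alone. Of it, Alas2 averaged 18.2 CPM in GF and 19.55 CPM in CV testes, against 2.63 and 2.92 CPM in GF and CV ovaries. The platelet gene Pf4 averaged 1.30 and 1.32 CPM in testes, against 3.825 and 4.69 CPM in ovaries. Of 7 tested markers, 6 were lower and 1 higher in testes, both between GF and between CV libraries. Nnt, a mitochondrial enzyme gene known to carry a deletion in some C57BL/6 colonies, averaged 137 ± 4.70 CPM in GF testes against 107 ± 3.38 CPM in CV testes, and 124 ± 15.5 CPM in GF ovaries against 58.2 ± 1.97 CPM in CV ovaries (SD, n = 3, 4, 5 and 4). Microbiota and colony of origin therefore cannot be told apart in these groups.

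Upstream sequences are shown for 4 of the genes, chosen for the comparison of the organs below. Emcn had the lowest level in the testis relative to the ovary, Flt1 and Egfl7 had the highest after Vwf, and Kdr is the VEGF receptor set beside Flt1. Each is the reference sequence (RefSeq, GRCm38.p6) before a listed transcription start, read 5′ to 3′ in the direction of the gene and ended before the first annotated exon base. Capitals mark AGGAAG on either strand, a word that holds GGAA, the core recognised by ETS factors, a family known to act in endothelial genes. Emcn lies at chr3:137340828-137341066 on the plus strand, Flt1 at chr5:147726012-147726261 on the minus strand, Kdr at chr5:75978459-75978705 on the minus strand, and the second of the 3 listed starts of Egfl7 at chr2:26583615-26583863 on the plus strand. The windows of 250 bases at the 3 starts of Egfl7 hold AGGAAG 3, 1 and 0 times, so the start shown does not stand for the others.
Emcn: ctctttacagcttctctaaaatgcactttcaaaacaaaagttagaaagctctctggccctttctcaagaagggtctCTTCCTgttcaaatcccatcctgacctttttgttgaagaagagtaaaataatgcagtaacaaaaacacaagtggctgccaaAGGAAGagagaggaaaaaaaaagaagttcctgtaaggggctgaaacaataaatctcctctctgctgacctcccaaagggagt
Flt1: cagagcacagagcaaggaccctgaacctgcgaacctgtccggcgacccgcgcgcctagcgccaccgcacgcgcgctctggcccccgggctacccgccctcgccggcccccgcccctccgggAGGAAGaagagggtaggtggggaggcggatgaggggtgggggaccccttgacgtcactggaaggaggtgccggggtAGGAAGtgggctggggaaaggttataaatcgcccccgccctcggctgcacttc
Kdr: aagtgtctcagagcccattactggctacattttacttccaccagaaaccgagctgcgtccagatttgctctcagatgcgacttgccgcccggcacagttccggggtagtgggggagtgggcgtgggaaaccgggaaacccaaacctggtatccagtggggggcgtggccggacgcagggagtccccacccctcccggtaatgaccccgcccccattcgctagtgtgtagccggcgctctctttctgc
Egfl7: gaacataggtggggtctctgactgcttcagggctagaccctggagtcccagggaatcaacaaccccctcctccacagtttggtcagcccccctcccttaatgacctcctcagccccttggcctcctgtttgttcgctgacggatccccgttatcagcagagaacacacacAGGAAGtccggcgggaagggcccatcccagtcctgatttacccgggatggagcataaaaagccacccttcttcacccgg

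The promoter table held 8 promoters for 6 of the 10 genes. In the full window of 250 bases, GGAA occurred on at least 1 strand in 8 of these 8 promoters, against 93.4% of all 32851 promoters. AGGAAG occurred in 5 of 8, from 4 genes, against 29.5% of all. The forkhead word TGTTTAC and the GATA word AGATAA occurred in 0 of 8, against 3.17% and 9.99% of all, and TATAAA in 1 of 8, that of Flt1, against 12.4%. A match is a description of letters in the window, and the absence of one says nothing of the factor.

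The RNA of 9 of the 10 genes was lower in the testis than in the ovary, both between CV and between GF libraries, and Vwf was the exception. Cdh5 encodes VE-cadherin, the adhesion protein of endothelial junctions, and Pecam1 an adhesion molecule at the borders between endothelial cells. Emcn encodes endomucin, a sialomucin of capillaries and veins, and Plvap the protein of the diaphragms that close endothelial pores. Counts of Emcn in testes were 16, 14 and 28 in GF and 22, 30, 25 and 25 in CV libraries, while ovaries had 564, 512, 470, 487 and 593 in GF and 509, 528, 403 and 454 in CV libraries. Every testis count lay far below every ovary count, although the testis libraries were sequenced more deeply. Scaled for depth and composition, Emcn averaged 0.985 ± 0.388 CPM in GF testes and 28.5 ± 1.55 CPM in GF ovaries (SD, n = 3 and 5), and 1.31 ± 0.181 CPM in CV testes against 26.0 ± 1.60 CPM in CV ovaries (SD, n = 4 each). In whole organs, fewer cells of a type and less RNA per cell cannot be told apart.

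In log2 terms the testis over ovary difference of Emcn was -4.85 (SE 0.16) between GF and -4.31 (SE 0.14) between CV libraries, the lowest of the set in both. Plvap stood at -4.27 and -4.02, Pecam1 at -4.03 and -3.64, Tie1 at -3.31 and -3.38, Kdr at -3.50 and -3.24, Cdh5 at -3.15 and -2.84, Tek at -2.65 and -2.76, and Egfl7, a secreted protein of endothelial cells, at -2.19 and -2.39, in each case between GF and then between CV libraries. Flt1, which binds VEGF and placental growth factor and is known to act partly as a decoy, stood at -1.93 (SE 0.092) and -1.69 (SE 0.085). Adjusted p-values of these 9 genes by edgeR's quasi-likelihood test ran up to 4.82e-09 between GF and 1.69e-09 between CV libraries. The tissues differed almost everywhere: 43.7% of 21977 genes tested were called lower in GF testes and 44% in CV testes, at an adjusted p under 0.05, and the same 9 of 10 members were called lower in each. Group ranges did not overlap, with the testis lower, for the same 9 members in each, against 41.6% of all genes between GF and 42.5% between CV libraries. The median log2 difference of the 10 genes was -3.23 between GF and -3.04 between CV libraries, against 0.039 and 0.052 over all genes tested. Another scaling moves every such value: the median over all genes became 0.185 (GF) and 0.202 (CV) with median-ratio scaling, and -0.751 and -0.756 with raw totals. The share of called genes that were higher in the testis was 51.3% in both comparisons and became 38.8% (GF) and 38.6% (CV) with raw totals. The 9 members stayed lower and called under all 23 alternatives in each comparison.

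Vwf encodes the clotting glycoprotein that endothelial cells store and release. It had 528, 550 and 606 counts in GF testes and 352, 382, 506 and 395 counts in CV testes, and 341, 364, 480, 243 and 507 counts in GF ovaries and 435, 535, 325 and 324 counts in CV ovaries. In CPM it averaged 28.6 ± 2.00 in GF testes and 21.0 ± 5.60 in GF ovaries (SD, n = 3 and 5), and 20.9 ± 3.25 in CV testes against 22.1 ± 4.51 in CV ovaries (SD, n = 4 each). The ovary libraries spread widely, so the groups overlap between CV testes and CV ovaries. GF testes and GF ovaries overlap only by the highest GF ovary, at 27.1 CPM, which stood just above the lowest GF testis at 27.0 CPM. The log2 difference, testis over ovary, was 0.45 between GF libraries (SE 0.19, adjusted p = 0.0365) and -0.08 between CV libraries (SE 0.19, adjusted p = 0.675). Between GF libraries 46.1% of all genes were called higher in the testis. The GF call of Vwf ended with its sign kept in 8 of 23 alternatives: without GF testis 1 (adjusted p = 0.063), 2 (0.052) or 3 (0.113), without GF ovary 1 (0.0827), 2 (0.0537) or 4 (0.0611), with no filter on low counts (0.0772) and in a fit of the GF groups alone (0.0532). With raw totals its sign turned to -0.34 (adjusted p = 0.0935; range over all alternatives 0.0024 to 0.113). With raw totals Vwf was also called lower in CV testes (-0.89, adjusted p = 0.000236).

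**Figure D1:**
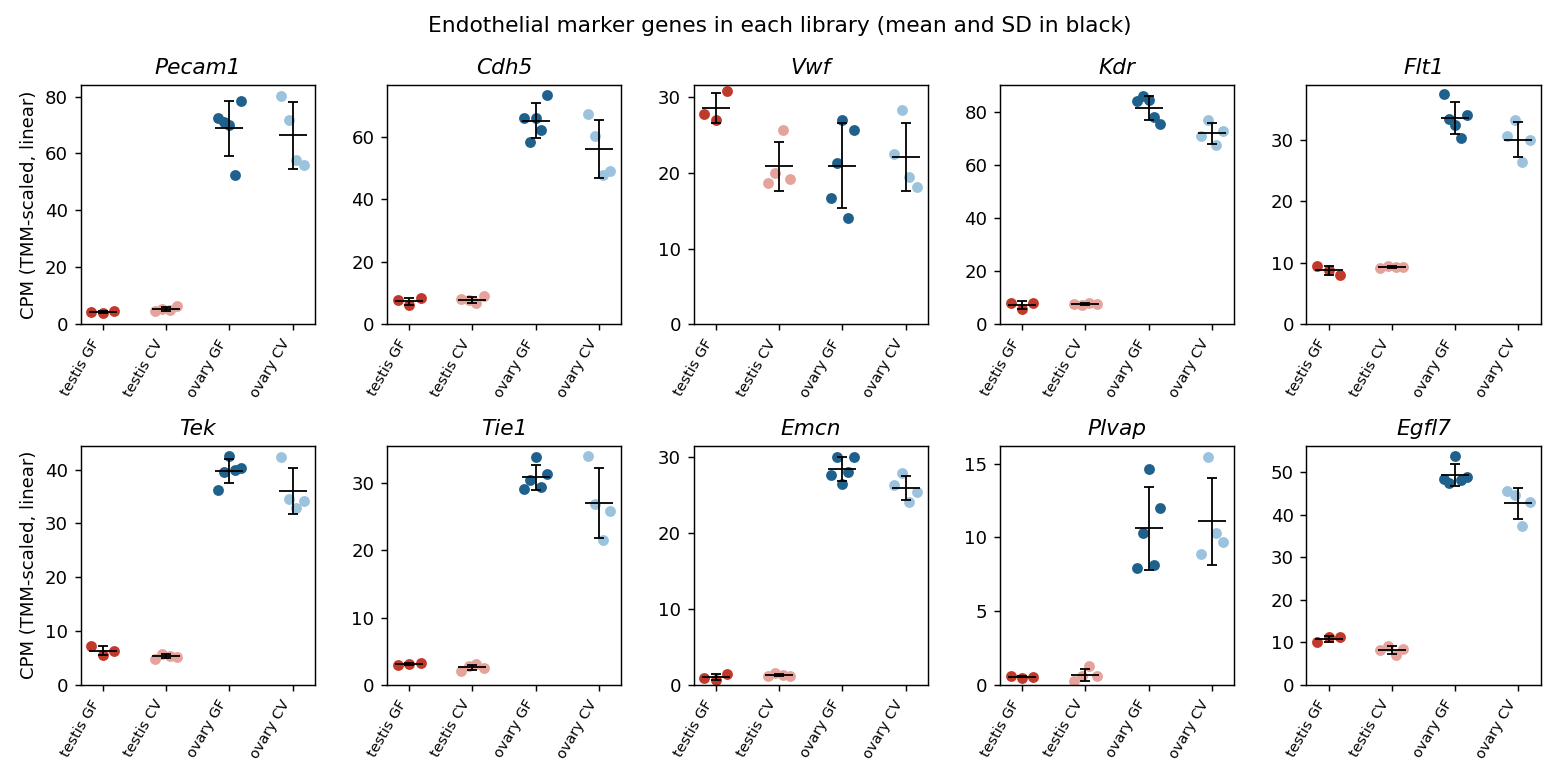
Level of each endothelial marker gene in CPM (TMM-scaled, linear axis from 0), 1 panel per gene and 1 point per library, in GF and CV testes and GF and CV ovaries, with the group mean and SD in black. For 9 genes every testis point lies below every ovary point, while Vwf runs from 18.7 to 30.8 CPM in testes and from 14.0 to 28.3 CPM in ovaries.

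Levels of different genes were compared after division by exon length, as CPM per kilobase. Cdh5 was the highest of the set in the ovary, at 15.5 ± 1.31 in GF and 13.3 ± 2.24 CPM per kilobase in CV libraries (SD, n = 5 and 4). It was followed in both groups by Egfl7, Pecam1, Kdr and Tek, with Plvap, Tie1 and Emcn below, then Flt1 (2.48 in GF, 2.23 in CV) and Vwf last (1.31 in GF, 1.38 in CV). Within GF ovaries the ranges of neighbours in this order did not overlap between Egfl7 and Pecam1, Tek and Tie1, Emcn and Flt1, and Flt1 and Vwf. Within CV ovaries they did not overlap between Pecam1 and Kdr, Emcn and Flt1, and Flt1 and Vwf. The other neighbours could not be separated by their ranges.

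The order in the testis was another. Egfl7 came first, at 3.03 ± 0.186 in GF and 2.28 ± 0.239 CPM per kilobase in CV testes (SD, n = 3 and 4). Vwf and Cdh5 followed, at 1.78 and 1.74 in GF testes and 1.30 and 1.87 in CV testes, with overlapping ranges. Emcn was last in both groups, at 0.182 in GF and 0.242 CPM per kilobase in CV testes. In GF testes neighbours had ranges that did not overlap between Egfl7 and Vwf, Tek and Kdr, and Tie1 and Plvap. In CV testes this held between Tek and Pecam1, Kdr and Flt1, and Flt1 and Tie1.

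As a share of the summed CPM per kilobase of the 10 genes, Vwf made up 15.4 to 16.3% in GF testes and 11.6 to 15.8% in CV testes, against 1.21 to 2.01% in GF ovaries and 1.71 to 2.30% in CV ovaries. Flt1 made up 5.05 to 6.32% in GF testes and 6.68 to 7.17% in CV testes, against 2.87 to 3.62% in GF ovaries and 2.89 to 3.36% in CV ovaries. The other VEGF receptor gene, Kdr, had the lower share in testes, with 6.02 to 8.0% in GF and 7.70 to 9.04% in CV testes, against 10.1 to 12.3% in GF ovaries and 10.01 to 12.2% in CV ovaries. Emcn made up 1.24 to 2.23% in GF and 2.17 to 2.81% in CV testes, against 5.85 to 7.20% in GF and 6.22 to 7.13% in CV ovaries. For these genes, and for Egfl7, Pecam1 and Tie1, every testis share lay outside the range of the ovary shares. The ranges of Cdh5, Tek and Plvap overlapped between the organs.

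**Figure D2:**
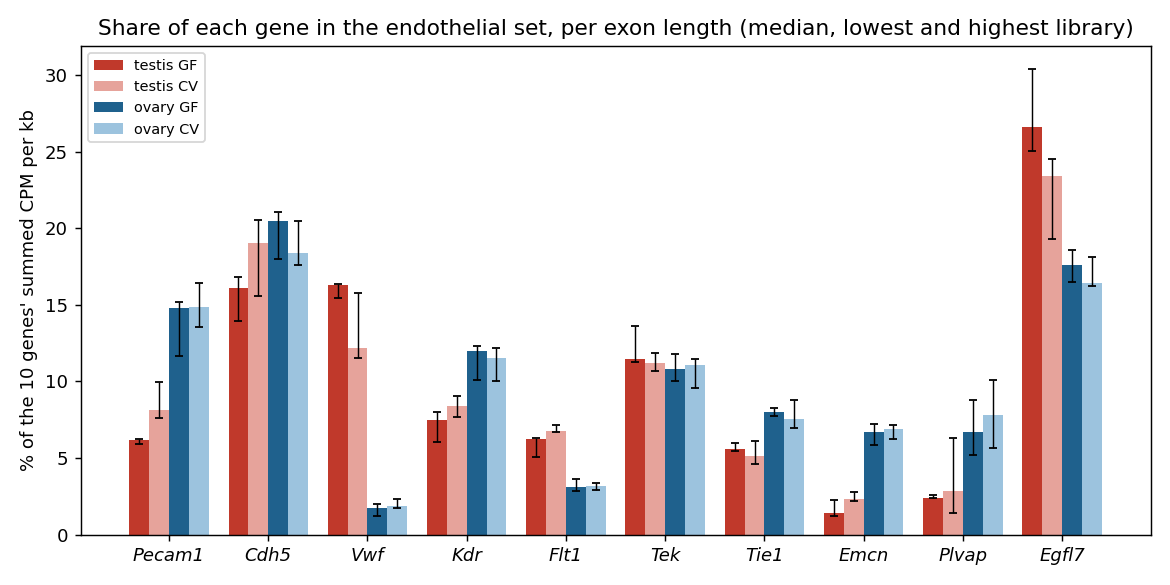
Share of each gene in the summed CPM per kilobase of exon of the 10 genes, as the median library (bars, from 0) with the lowest and highest library (error bars) of GF testes, CV testes, GF ovaries and CV ovaries. Vwf stands at 16.3% and 12.2% in GF and CV testes and at 1.72% and 1.86% in GF and CV ovaries, and Emcn at 1.39% and 2.30% against 6.72% and 6.92%.

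**Figure D3:**
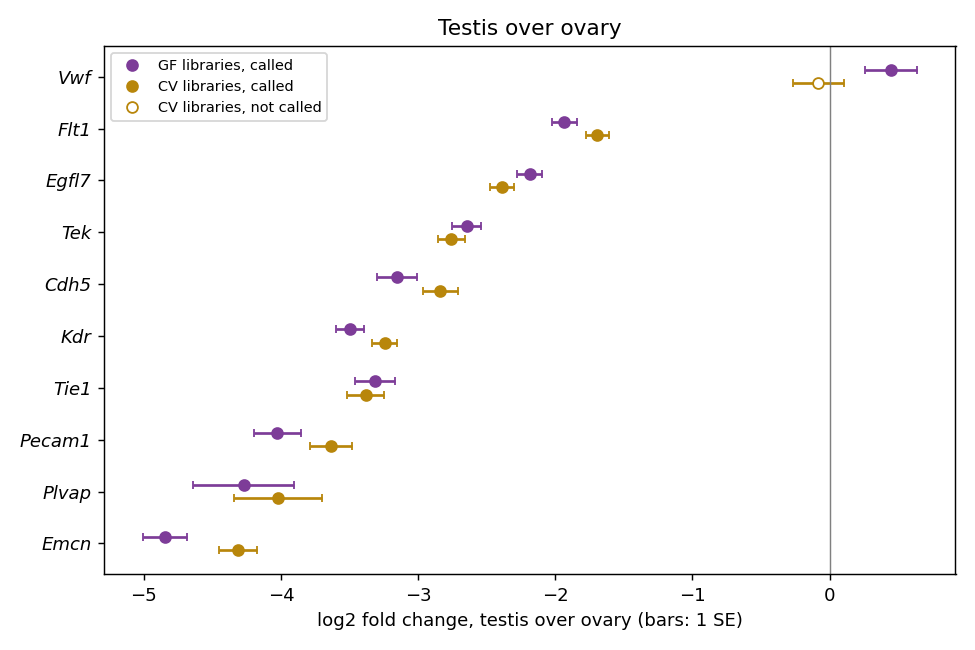
Log2 fold change of testis over ovary for each gene between GF libraries (purple) and between CV libraries (gold), with bars of 1 SE, filled where the adjusted p was under 0.05. Values run from -4.85 for Emcn to 0.45 for Vwf between GF libraries, and from -4.31 to -0.08 for the same genes between CV libraries.

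Most genes of the other vascular lists were also lower in the testis. Over all genes 43.7% were called lower in GF testes and 44% in CV testes. Of 16 other endothelial surface and junction genes, 16 were called lower in GF testes and 16 in CV testes (median log2 -3.43 and -3.02). Of 12 VEGF and angiopoietin ligands and receptor partners, 11 were called lower and 1 higher in each comparison (median -2.87 and -2.82). Vegfa, the main VEGF ligand, averaged 4.77 CPM in GF and 5.43 CPM in CV testes, against 101 CPM in GF and 90.7 CPM in CV ovaries. Placental growth factor, the ligand of Flt1 encoded by Pgf, was the 1 called higher, at 5.52 CPM in GF and 4.10 CPM in CV testes, against 1.95 CPM in GF and 2.64 CPM in CV ovaries. Of 10 endothelial transcription factor genes 9 were called lower in each comparison, and Gata2 higher between GF libraries (20.9 against 9.13 CPM). Of 5 tested lymphatic markers 4 were called lower and Prox1 higher in each. Of 10 Notch and sprouting genes, 5 were called lower and 1 higher between GF libraries, and 6 and 2 between CV libraries. Of the vascular lists this one lay nearest the share of all genes. Kcne3, a potassium channel subunit, was called higher, at 135 CPM in GF and 164 CPM in CV testes against 21.8 CPM in GF and 25.9 CPM in CV ovaries, as was Notch4, an endothelial Notch receptor, between CV libraries (11.5 against 5.70 CPM). Pericyte and smooth muscle markers were called lower in 10 of 10 and leukocyte markers in 5 of 5 tested, in each comparison, and testis germ and somatic cell markers higher in 5 of 7 and lower in 1, the anti-Müllerian hormone gene Amh (log2 -4.77 between GF and -4.48 between CV libraries). The part that the makeup of the organs has in the member values was not tested.

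Between GF and CV testes, Vwf and Egfl7 were higher in GF and the other 8 members were not called. Vwf stood at 27.8, 27.0 and 30.8 CPM in GF testes and at 18.7, 19.99, 25.7 and 19.3 CPM in CV testes, so each GF library lay above each CV library, with CV3 the nearest. Its log2 fold change was 0.47 (SE 0.094, adjusted p = 0.00383), a 1.38-fold higher level. Egfl7 stood at 10.1, 11.2 and 11.2 CPM in GF testes and at 8.11, 9.06, 7.01 and 8.43 CPM in CV testes, again without overlap. Its log2 fold change was 0.43 (SE 0.10, adjusted p = 0.00433), a 1.35-fold higher level resting on 640 counts in GF and 637 counts in CV libraries. Of 20269 genes tested in the testis, 3.67% were called higher in GF and 8.08% were called in either direction, beside the 2 of 10 members. The log2 fold change was positive for 4 of 10 members and 51.2% of all genes. Group ranges did not overlap, with GF higher, for 2 of 10 members and 6.81% of all genes. The median log2 fold change of the 10 was -0.06, against 0.004 over all genes.

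Both calls held under 13 of 14 alternatives, each library left out in turn among them, where the log2 fold change ran from 0.41 to 0.58 for Vwf and from 0.36 to 0.48 for Egfl7. They ended in a fit of all 4 groups, where the log2 fold change was 0.45 for Vwf (adjusted p = 0.683) and 0.41 for Egfl7 (adjusted p = 0.0649). The testis fit had a biological coefficient of variation of 4.17%, and that of all 4 groups 14%. The part of this in the lost calls was not tested.

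The Egfl7 value is uncertain for another reason. In GRCm38, Egfl7 (ENSMUSG00000026921) lies on the plus strand of chromosome 2 at 26580014 to 26593120, where the annotation also has Gm20532, on the same strand at 26586639 to 26635634, which shares 264 exon bases with it. Gm20532 had 93.3 to 99.9% of the Egfl7 count in each ovary and 139 to 173% of it in each testis, and was also called higher in GF testes (log2 0.35, adjusted p = 0.00675). How the authors' counting divided shared reads is not given in the sources used here. Agpat2, on the opposite strand, shares 64 exon bases with Egfl7 and was not called (0.09, adjusted p = 0.124). The microRNA gene Mir126a, on the same strand, shares 73 exon bases with Egfl7. It had 353 counts over all libraries, beside 8942 for Egfl7. Mir126b, on the opposite strand, shares 58 exon bases and had no row in the counts. Of 56 genes tested within 1 Mb of Egfl7, 9 were called in GF testes, 16.1% against 8.08% over all genes. All 9 were higher, Gm20532 among them, against 45.4% of all called genes. In the ovary 0 of 52 such genes were called, against 0.177% of all genes. Vwf (ENSMUSG00000001930) lies on the plus strand of chromosome 6 at 125546774 to 125686679, with no overlapping annotated gene. Within 1 Mb of it 3 of 42 genes were called, or 7.14%. Among them was Ano2, a chloride channel gene that starts 3739 bases after the end of Vwf (208 to 255 counts in GF and 143 to 223 in CV testes; log2 0.37, adjusted p = 0.0336). The choice of Gm20532, Agpat2 and Ano2 followed a look at their values.

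Among the uncalled members in the testis, Tek stood at 7.22, 5.55 and 6.26 CPM in GF and at 4.88, 5.76, 5.43 and 5.22 CPM in CV testes (log2 0.27, SE 0.13, adjusted p = 0.231). Pecam1 stood at 4.32, 3.78 and 4.58 CPM in GF and at 4.45, 5.39, 5.03 and 6.44 CPM in CV testes (-0.32, SE 0.14, adjusted p = 0.199). Each of these pairs of groups overlaps by 1 or more libraries. Tie1 had a log2 value of 0.27, Cdh5 -0.08, Flt1 -0.07 and Kdr -0.06. Emcn (-0.39, SE 0.28) and Plvap (-0.30, SE 0.41) rested on 58 and 32 counts in GF and 102 and 53 counts in CV testes. Plvap ran from 5 to 25 counts among the CV testes. Counting the called genes, 4 members had an unadjusted p under 0.05, against 19.4% of all genes.

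Genes of the other vascular lists moved both ways in GF testes, where 8.08% of all genes were called and 19.4% had an unadjusted p under 0.05. Flt4, the receptor for the lymphatic VEGF ligand, rose to 19.4 ± 0.305 CPM in GF, against 15.6 ± 0.440 CPM in CV testes (SD, n = 3 and 4; log2 0.33, adjusted p = 0.0016). Pgf rose to 5.52 ± 0.905 CPM against 4.10 ± 0.345 CPM (0.45, adjusted p = 0.0421), a call that ended in 9 of 14 alternatives, among them without GF2 (0.331). These were the 2 called of 12 VEGF and angiopoietin ligands and partners, both higher. Of 9 tested Notch and sprouting genes 3 were called, all lower: Kcne3 (135 ± 4.43 CPM in GF, 164 ± 10.8 CPM in CV; -0.26, adjusted p = 0.000174), Notch4 (8.32 ± 0.442 and 11.5 ± 1.04 CPM; -0.45, adjusted p = 0.00179) and the Notch target Hey1 (7.497 ± 0.139 and 9.81 ± 1.25 CPM; -0.37, adjusted p = 0.0261). The Hey1 call ended in 8 of 14 alternatives, among them without CV3 (0.115). Unlike most vascular genes, Kcne3 was higher in testes than in ovaries, as was Notch4 between CV libraries. Which testis cells hold their RNA was not tested. None of 14 tested surface and junction genes was called by edgeR (1 at an unadjusted p under 0.05, Cd34 at -0.24), nor of 10 transcription factor genes (0 at an unadjusted p under 0.05). Without CV2, edgeR did call Cd34 (-0.30, adjusted p = 0.021). DESeq2 and limma-voom called 0 in both lists, and called Flt4, Kcne3 and Notch4 but not Pgf and Hey1. In the fit of all 4 groups the calls of Flt4 (adjusted p = 0.416), Kcne3 (0.887) and Notch4 (0.667) ended too, with log2 values of 0.31, -0.28 and -0.47. Flt4 was also the 1 called of 4 tested lymphatic markers. The medians of these 4 lists were 0.17, -0.02, -0.01 and 0.01, in the order given.

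Markers of other cells stood as follows in the testis, where 8.08% of all genes were called and 19.4% had an unadjusted p under 0.05. The smooth muscle actin gene Acta2 was the 1 called of 9 tested pericyte and smooth muscle markers, at 58.6 ± 2.22 CPM in GF and 66.1 ± 4.25 CPM in CV testes (-0.16, adjusted p = 0.0393), a call that ended in 9 of 14 alternatives, among them without GF2 (0.212). That list's sum ran from 141 to 147 CPM in GF and from 149 to 169 CPM in CV testes. Acrv1, a protein of the sperm acrosome, was the 1 called by edgeR of 7 testis germ and somatic cell markers (-0.16, adjusted p = 0.00125), a call that ended in the fit of all 4 groups (0.627). DESeq2 called Acrv1 alone and limma-voom Acrv1 and Prm1, a protamine gene of sperm. Their sum ran from 7175 to 7467 CPM in GF and from 7358 to 7758 CPM in CV testes. Of 5 tested leukocyte markers 0 were called by edgeR (1 at an unadjusted p under 0.05) and 0 by DESeq2 and limma-voom, with sums of 23.8 to 27.4 CPM in GF and 27.3 to 29.8 CPM in CV testes. Without CV4, edgeR called Cd68 of this list (-0.61, adjusted p = 0.0476). Of 7 tested red cell and platelet markers 0 were called by edgeR (0 unadjusted), DESeq2 or limma-voom, with sums of 41.2 to 48.8 CPM in GF and 41.0 to 54.4 CPM in CV testes. Of 5 tested genes of the corpus luteum list 0 were called by edgeR (1 unadjusted, Lhcgr at 0.53, adjusted p = 0.239) or DESeq2. Lhcgr was called by limma-voom (adjusted p = 0.0236), and by edgeR without CV1 (0.000586) or with no filter (0.000188). Of 3 tested oocyte and follicle markers 0 were called by any of the tools (0 unadjusted by edgeR). The part of these cells in the values of Vwf and Egfl7 was not tested.

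**Figure D4:**
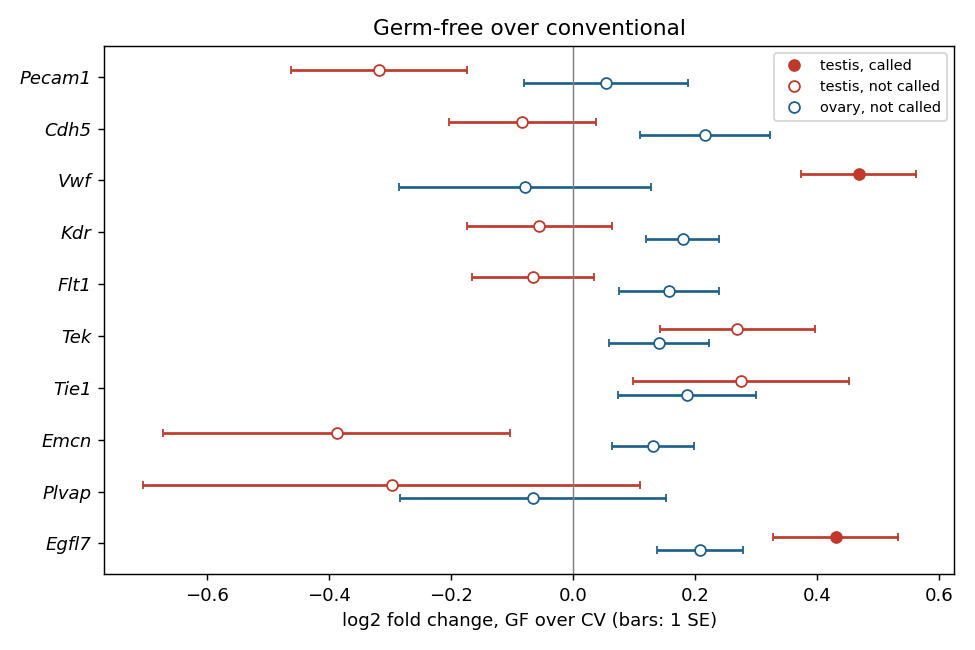
Log2 fold change of GF over CV for each gene in the testis (red) and the ovary (blue), with bars of 1 SE, filled where the adjusted p was under 0.05. Vwf (0.47) and Egfl7 (0.43) in the testis are the filled points, and the ovary values lie between -0.08 and 0.22.

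Between GF and CV ovaries 8 of the 10 genes had a positive log2 fold change, and 0 of 10 were called by edgeR. Over all 18095 genes tested 51.7% were positive and 0.177% were called. With replicate number as a block, a fit without GF5, the count over all genes was 91 in place of 32. Without GF5 and with no block it was 33, and by DESeq2 on all 9 ovaries 95. The count of members was 0 in each of these, and 0 by limma-voom. Kdr and Egfl7 had an unadjusted p under 0.05, as did 6.48% of all genes. The median log2 fold change of the 10 was 0.15, against 0.006 over all genes. Pooled as a sum, the 10 genes stood at 426, 428, 452, 391 and 449 CPM in GF ovaries and at 429, 420, 345 and 364 CPM in CV ovaries. CV3 and CV4 were the lowest libraries, while CV1 and CV2 lay among the GF values.

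Kdr stood at 84.1, 85.9, 84.7, 78.1 and 75.4 CPM in GF ovaries and at 70.9, 77.0, 67.4 and 72.8 CPM in CV ovaries, so the groups overlap by the lowest GF and the highest CV library. Its log2 fold change was 0.18 (SE 0.06, adjusted p = 0.642), and 0.21 with replicate number as a block (adjusted p = 0.253). Kdr, Egfl7, Emcn and Flt1 were each higher in the GF library of 4 of 4 same-numbered pairs, as were 8.7% of all genes. Neither a label nor the data settle a pairing by number. Egfl7 stood at 48.4, 47.6, 53.9, 48.1 and 48.8 CPM in GF and at 45.7, 44.7, 37.4 and 42.9 CPM in CV ovaries (0.21, SE 0.07, adjusted p = 0.642). It was the 1 member whose ranges did not overlap, with 1.33% of all genes not overlapping in that direction. Cdh5 (0.22), Tie1 (0.19), Flt1 (0.16), Tek (0.14), Emcn (0.13) and Pecam1 (0.05) had adjusted p-values from 0.785 to 0.964. Vwf (-0.08, SE 0.21) and Plvap (-0.07, SE 0.22) had the widest errors, with 14.0 to 27.1 CPM in GF and 18.2 to 28.3 CPM in CV ovaries for Vwf, and 7.95 to 14.7 CPM in GF and 8.86 to 15.5 CPM in CV ovaries for Plvap.

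Other lists in the ovary gave no call either by edgeR, DESeq2 or limma-voom. Over all genes 0.177% were called by edgeR and 6.48% had an unadjusted p under 0.05. By edgeR 0 of 16 surface and junction genes were called (3 unadjusted; median 0.15), 0 of 12 VEGF and angiopoietin ligands and partners (1 unadjusted; median 0.08), 0 of 10 transcription factor genes (1 unadjusted; 0.05), 0 of 10 Notch and sprouting genes (2 unadjusted; -0.06), 0 of 5 tested lymphatic markers (0 unadjusted; 0.03) and 0 of 10 pericyte and smooth muscle markers (1 unadjusted; 0.02). Among the list genes of smallest p were Aplnr, the apelin receptor (35.1 ± 5.31 CPM in GF, 26.8 ± 2.43 CPM in CV ovaries; log2 0.38, adjusted p = 0.503), Hey1 (8.85 ± 0.613 and 11.2 ± 0.971 CPM; -0.34, adjusted p = 0.508), Pdgfrb, a receptor of pericytes (0.41, adjusted p = 0.642), Vegfc, the lymphatic VEGF ligand (0.39, adjusted p = 0.644) and the netrin receptor Unc5b (0.48, adjusted p = 0.706). Esam, an endothelial junction gene (0.17, adjusted p = 0.75), the transcription factor genes Lyl1 (0.40, adjusted p = 0.761) and Sox18 (0.24, adjusted p = 0.77), and Vegfa (0.15, adjusted p = 0.785) followed within their lists. Corpus luteum markers summed to 5419 to 9673 CPM in GF and 5574 to 7394 CPM in CV ovaries, with 0 of 7 called by edgeR (0 unadjusted). The highest of these sums, in GF1, went with a member sum of 426 CPM, and the lowest, in GF5, with 449 CPM. Among CV ovaries the highest, in CV1, went with a member sum of 429 CPM, and the lowest, in CV2, with 420 CPM. Leukocyte markers summed to 81.2 to 160 CPM in GF and 110 to 169 CPM in CV ovaries (0 of 5 tested called by edgeR, 0 unadjusted), and red cell and platelet markers to 38.6 to 118 CPM in GF and 41.5 to 172 CPM in CV ovaries (0 of 7 tested, 0 unadjusted). Oocyte and follicle markers summed to 176 to 440 CPM in GF and 291 to 406 CPM in CV ovaries (0 of 7, 0 unadjusted). Of 4 tested testis germ and somatic cell markers 0 were called by edgeR (1 unadjusted). That gene was Insl3, at 5.61 ± 2.77 CPM in GF and 3.23 ± 0.91 CPM in CV ovaries (log2 0.79, adjusted p = 0.75). The part of these cells in the member values was not tested.

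The difference between the tissues in the GF response was tested over all 16 libraries. None of the 10 members was called by edgeR, against 0.132% of 21977 genes, and DESeq2, which called 127 genes, called 0 members, as did limma-voom. With replicate number as a block, over numbers 1 to 3 alone, the count over all genes was 16 in place of 29, and 0 members were called. Emcn was the 1 member with an unadjusted p under 0.05 (6.93% of all genes), with a log2 difference, testis less ovary, of -0.54 (SE 0.22, adjusted p = 0.64). Vwf had 0.53 (SE 0.27, adjusted p = 0.741) and Egfl7 0.20 (SE 0.12, adjusted p = 0.8). The calls of Vwf and Egfl7 in the testis are thus not shown to differ from the ovary.

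Members differed in how far they moved together between libraries. Over the 9 ovaries, Pearson's r of each gene's log2 CPM with the mean z score of the other 9 members ran from 0.26 for Plvap and 0.44 for Vwf to 0.83 for Cdh5 and 0.84 for Egfl7. Over the 7 testes it ran from -0.27 for Flt1 to 0.51 for Tek. These are descriptions, and the libraries share sequencing depth and scaling. The genes outside the set most like its mean z score were Arap3 (r = 0.97), Mamdc4 (0.96), Sbf1 (0.93), Shisa7 (0.92) and Cxcl9 (0.92) over 9 ovaries, of 14269 genes compared. Over 7 testes they were Mapk3 (0.99), Shroom3 (0.97), Baiap2 (0.97), Dlec1 (0.96) and Mknk1 (0.96), of 14471.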

How the data were processed

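The authors deposited 1 table of whole-number read counts over exons per gene, not normalised, with 38087 genes and 16 libraries. Per the labels' protocols, libraries were stranded total RNA after ribosomal RNA depletion. Per the submitters' processing notes, STAR 2.4.0i and mm10 were used. Which program counted the reads, with what annotation and strand setting, is not given in the sources used here. All 16 columns matched a sample by name. Positions, overlaps and exon lengths came from GENCODE M21 (GRCm38), joined by gene identifier.

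Counts were tested with edgeR 4.0.16 (R 4.3.3; quasi-likelihood F test, TMM scaling, its expression filter, robust dispersions), in each tissue alone for GF against CV, and over all 4 groups for the interaction and the tissue comparisons. Benjamini-Hochberg adjustment ran over all genes of a comparison, and a call means an adjusted p below 0.05. All 10 members passed the filter in each comparison. Fold changes of GF over CV and of testis over ovary are log2 values with standard errors (SE). CPM used TMM scaling over all 16 libraries. The fits were tested on simulated data. Alternatives were median-ratio scaling, raw totals, DESeq2 1.42.0, limma-voom (limma 3.58.1), no filter, each library left out, the replicate block, and other sets of samples in the fit. The replicate block kept only libraries whose number occurs in each group compared. It thus left out GF ovary 5 in the ovary and CV testis 4 in the testis.

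Pairs of replicates differed by more than sampling noise (chi-square per degree of freedom 2.37 to 34.3), so each library counts once. Deviations from the group mean in same-numbered GF and CV ovaries had r = 0.366, 0.246, 0.2 and 0.36 for numbers 1 to 4. Ovaries of unlike number ran from -0.427 (GF1 with CV2) to 0.383 (GF5 with CV2), the highest of all. GF3 was closer to CV2 (0.225) than to CV3. Neither a label nor these values settle a pairing by number. For same-numbered testes r was -0.035, 0.033 and -0.037. The members and the 11 gene lists (103 symbols, all found) were chosen with earlier results of these data known. The rule for naming list genes in the GF comparisons was called members, up to 4 by smallest p, otherwise the 2 of smallest p. Not every gene under this rule is named in the text. Others are named only as examples chosen after their values were seen. The genes most like the set are the 5 of highest r per tissue with a mean of at least 1 CPM, passing over predicted names.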

Additional observations from a re-analysis of the deposited data

Results flagged for a closer look

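Egfl7 in GF ovary 3, at 53.9 CPM, stood far above the other 4 GF ovaries, which ran from 47.6 to 48.8 CPM. Of 30 sets of 4 or 5 libraries examined in this way, 1 for each member in GF ovaries, CV ovaries and CV testes, this was the 1 so marked, and chance alone marks about 1 in 20. The cause was not tested.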

How the results depend on the processing

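The count of called genes in GF ovaries was 32, and became 95 by DESeq2, 91 with the replicate block and 93 in the fit of all 4 groups. Without GF5, which the block left out, the count was 33 with no block. In GF testes it was 1638, became 122 in the fit of all 4 groups, where 0 of the 10 members were called, and ran from 996 (without GF2) to 2084 over libraries left out. For the interaction it was 29, became 127 by DESeq2 and 16 with the replicate block, and ran from 13 (without testis GF3) to 37 over libraries left out. The causes were not tested. The replicate block changed no call of a member. In GF testes the calls of Pgf (log2 0.39) and Acta2 (-0.13) ended with the block, a fit that also left out CV4. Without CV4 and with no block both calls ended too by edgeR, Pgf at 0.39 (adjusted p = 0.0955) and Acta2 at -0.13 (0.0894).

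Signs turned only for values that were not called, apart from Vwf between GF testes and GF ovaries, at -0.34 with raw totals. Between CV testes and CV ovaries Vwf was at 0.070 with median-ratio scaling and 0.070 by DESeq2, and ran from -0.20 to 0.056 over libraries left out. Ranges over libraries left out that crossed 0 in the ovary were -0.020 to 0.16 for Pecam1, -0.21 to 0.14 for Plvap, -0.19 to 0.062 for Vwf and -0.75 to 0.23 for Hbb-bt. In the testis they were -0.19 to 0.034 for Cdh5, -0.15 to 0.10 for Kdr, -0.56 to 0.20 for Plvap and -0.084 to 0.27 for Cyp11a1. In the interaction they were -0.060 to 0.16 for Tie1 and -0.51 to 0.25 for Plvap. Of 1598 recomputed values of single genes, 1533 kept their sign and their side of the threshold. Emcn and Plvap had the fewest counts of the set, 58 and 32 over the GF testes, and the largest standard errors there.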
